A study of Mus musculus with 38 samples.

Results

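The regions described here were 696 H3K4me3 peaks of adult mouse liver that lay in H3K27me3 chromatin and carried no H3K27ac peak. They were chosen from the deposited peak lists as male H3K4me3 peaks that overlapped, by 1 bp or more, a female H3K4me3 peak and an H3K27me3 island of both the male and the female list, and that overlapped no H3K27ac peak of either list. They made up 4.35% of the 16018 male H3K4me3 peaks on the 19 autosomes and 4.77% of the 14583 male peaks that had a female partner. The H3K4me3, H3K27me3 and H3K27ac lists chose the regions, so values of these marks are given as a description and support nothing.

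The study mapped 6 histone marks by chromatin immunoprecipitation and sequencing in liver taken from CD-1 mice of either sex at 8 weeks; CD-1 is an outbred stock. Whole livers were used, without treatment or genetic change named in the labels. By the labels the groups differ in sex and antibody. The library titles also carry codes whose meaning is not given. For H3K27me3, male and female libraries had no code number in common, so any difference tied to the codes cannot be told apart from sex. There were 4 male and 3 female libraries for H3K4me3 and H3K4me1, 3 per sex for H3K27me3 and H3K27ac, and 2 per sex for H3K36me3 and H3K9me3. Libraries of the same mark and sex carried the same deposited list. Each mark thus had 1 pooled list per sex, which gives no measure of variation among mice, and no test between the sexes or between classes of peaks was run. Reads inside peaks numbered 5087982 for male and 5084261 for female H3K4me3, and 15305301 and 16904292 in the H3K27me3 lists.

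H3K4me3 is deposited by trithorax-type methyltransferases and is known for marking the starts of genes. H3K27me3 is deposited by Polycomb repressive complex 2 and covers silenced genes, often those of development, while H3K27ac marks active promoters and enhancers. Promoters that carry both methylations are called bivalent and are known from embryonic stem cells, where CpG-rich starts of developmental genes are held silent. Overlap of 2 peak lists from whole liver cannot tell both marks on 1 nucleosome apart from each mark in a different cell type.

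Sequences are shown for promoters that stand for the groups described below. Each is the 150 bases before the RefSeq gene start, 5′ to 3′ on the gene's strand, from the RefSeq promoter table of build GRCm38.p6, with every CG dinucleotide in capitals. The first pair belongs to developmental genes: Msx1, a homeobox transcription factor, at chr5:37824586-37824735 on the minus strand, and Epha7, an ephrin receptor, at chr4:28812981-28813130 on the plus strand. The next 3 belong to genes known for a cell type other than the hepatocyte. They are Cxcr4, a chemokine receptor, at chr1:128592300-128592449 (minus), Lrat, the retinol-esterifying enzyme of stellate cells, at chr3:82903975-82904124 (minus), and Epcam, an epithelial adhesion protein of bile duct cells, at chr17:87635829-87635978 (plus). Clspn, which encodes the replication checkpoint protein claspin, lies at chr4:126556830-126556979 (plus). The last pair carried a sex call: Plppr1, which encodes a membrane protein of neurons, at chr4:49059312-49059461 (plus), and Entpd1, which encodes the ectonucleotidase CD39, at chr19:40612216-40612365 (plus).
Msx1: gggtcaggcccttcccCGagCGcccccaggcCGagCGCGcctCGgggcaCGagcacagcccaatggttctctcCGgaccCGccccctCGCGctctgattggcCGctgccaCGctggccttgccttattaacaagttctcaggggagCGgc
Epha7: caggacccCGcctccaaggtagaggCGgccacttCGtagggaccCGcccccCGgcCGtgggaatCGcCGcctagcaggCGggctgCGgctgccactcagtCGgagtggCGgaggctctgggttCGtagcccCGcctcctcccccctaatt
Cxcr4: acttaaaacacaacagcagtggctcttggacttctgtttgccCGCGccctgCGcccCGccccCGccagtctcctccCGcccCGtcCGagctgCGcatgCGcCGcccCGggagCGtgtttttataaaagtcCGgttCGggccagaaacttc
Lrat: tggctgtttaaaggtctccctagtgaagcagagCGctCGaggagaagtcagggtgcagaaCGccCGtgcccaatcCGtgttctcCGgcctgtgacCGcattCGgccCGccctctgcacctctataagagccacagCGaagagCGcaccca
Epcam: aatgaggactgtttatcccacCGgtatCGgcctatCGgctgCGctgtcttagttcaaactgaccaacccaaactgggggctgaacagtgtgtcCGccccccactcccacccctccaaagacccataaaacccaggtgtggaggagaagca
Clspn: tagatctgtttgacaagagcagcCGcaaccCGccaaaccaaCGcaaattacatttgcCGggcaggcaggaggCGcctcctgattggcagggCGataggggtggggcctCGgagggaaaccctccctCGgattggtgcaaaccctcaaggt
Plppr1: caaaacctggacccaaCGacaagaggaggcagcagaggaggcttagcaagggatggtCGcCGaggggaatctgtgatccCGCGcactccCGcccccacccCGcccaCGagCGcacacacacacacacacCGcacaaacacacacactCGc
Entpd1: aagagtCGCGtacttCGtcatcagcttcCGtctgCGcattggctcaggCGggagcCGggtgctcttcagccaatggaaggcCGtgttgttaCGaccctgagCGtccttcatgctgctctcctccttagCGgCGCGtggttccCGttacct
The number of CG dinucleotides in the 8 stretches ran from 5 in that of Epcam to 15 in that of Cxcr4. Over the whole 300-base RefSeq window (250 bases before to 50 after the start), the ratio of observed to expected CG was 0.79 at Msx1, 0.83 at Epha7, 0.77 at Cxcr4, 0.78 at Lrat, 0.45 at Epcam, 0.84 at Clspn, 0.99 at Plppr1 and 0.75 at Entpd1. The Epcam window had the lowest ratio of the 8.

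The peak files are in mm9 coordinates and name no genes, and no mm9 genome was used. Gene starts were therefore placed on the mm9 positions of the IgG control reads by matching read sequences to the RefSeq promoter windows, with no conversion of coordinates. This placed 14626 of the 25748 autosomal genes of the table, 57.9% of the placed windows by reads at 1 position. A start was placed inside 156 of the 696 regions (22.4%, exact 95% interval 19.4 to 25.7%), for 170 genes, of which 143 were protein-coding and 27 long non-coding. In the active class, the 11738 shared H3K4me3 peaks with H3K27ac and no H3K27me3 in either list, a start was placed inside 42.8% (41.9 to 43.7%). IgG coverage differed along with this share: it was 3.56 reads per kb over the regions and 5.11 over the active class. Its part in the difference was not tested, and regions without a name may still hold a gene start.

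H3K4me3 at these regions was low and narrow. The number of tags (reads in the peak) ranged from 22 to 5385 in the male list with a median of 61.5, and from 18 to 840 in the female list with a median of 55. The middle 50% of regions held 44 to 91 male tags and 37 to 83 female tags. Of the 696 regions, 552 had under 100 male tags and 15 had 200 or more. The active class held a median of 326 male and 320 female tags, so that even the upper quartile of the regions lay below the lower quartile of 171 male tags there. The 940 shared peaks that carried H3K27me3 in both lists and also H3K27ac lay in between, with medians of 119 male and 100 female tags. The 284 shared peaks with neither mark had medians of 60 and 48.5 tags, close to those of the regions.

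**Figure D1:**
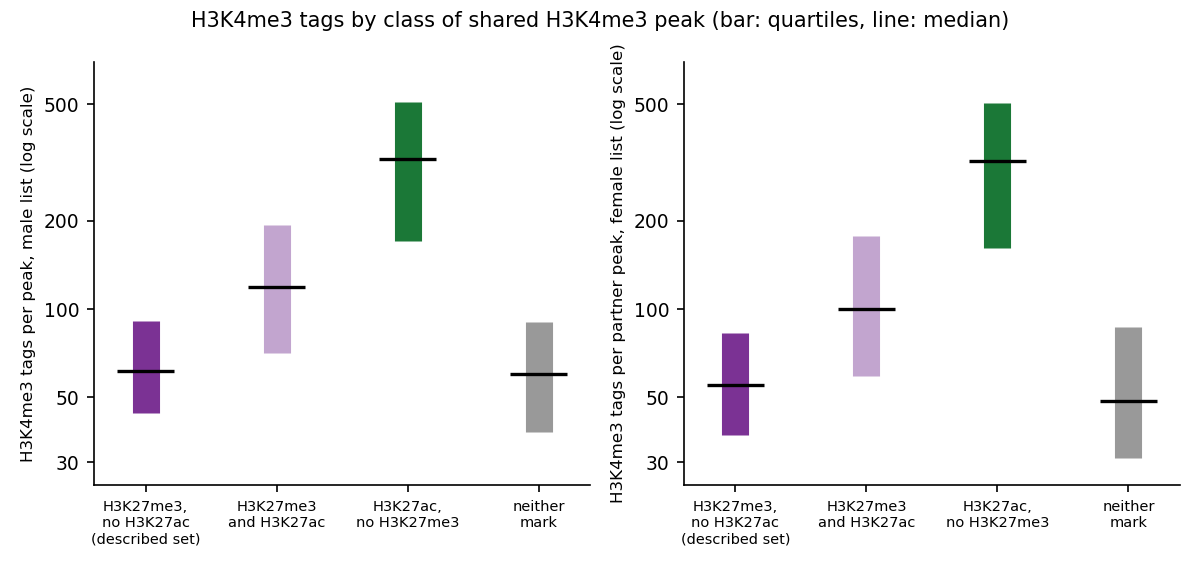
H3K4me3 tags per peak in the male list (left) and in the partner peak of the female list (right), both on log scales, for 4 classes of H3K4me3 peaks found in both lists; bars span the quartiles over peaks and black lines mark the median. The described set has a male median of 61.5 tags, against 119 with H3K27ac added and 326 in the active class.

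The authors' own measures of peak strength gave the same order. Fold enrichment, as deposited for each peak, had a median of 7.17 at the regions in the male list and 9.36 in the female list, against 17.9 and 30.2 in the active class. The median width was 1047 bp, against 2041 bp in the active class and 1803 bp over the whole male list. Ranked by the authors' score from best to worst, the regions had a median place at 79.9% of the male list, and 6 of them fell in its better-scoring 50%. The false discovery rate deposited for a peak had a median of 12.1% at the regions. It was 5% or less for 244 of them and above 50% for 180 of them, against 1953 of all 16018 male peaks above 50%. Many of the regions are thus near the limit of the authors' peak calling in the male list. The female peak at each was required by the rule.

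The tags of the 2 lists followed each other across regions. On the log10 scale, the male and female tags correlated with Pearson's r of 0.68 and Spearman's rho of 0.65 over the 696 regions, a description across regions that share libraries. Tags also followed peak width (r of 0.94), which enters into them. They showed a weak inverse relation to the H3K27me3 fold of the island in the male list (r of -0.19, rho of -0.16).

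The H3K27me3 islands around the regions were broader than the median island. The regions fell in 660 distinct male and 661 distinct female islands, 3.29% and 3.39% of the lists. The median width over those islands was 31000 bp in the male and 34400 bp in the female list, against 21600 bp over all islands of either list. Their median fold over control was 1.73 and 1.94, against 1.49 and 1.56 over all islands. These values are close to those of peaks with H3K27me3 and H3K27ac. Taken per peak, the median island width was 31400 bp (male list) and 35600 bp (female list) at the regions and 30000 and 32400 bp in that class, and the median fold was 1.73 and 1.95 against 1.68 and 1.86. Most regions were wholly covered by an island, 678 in the male list and 684 in the female list. In turn, 5 and 4 were covered over less than 50% of their length. Most islands held a single region, since 625 of the 660 male islands held 1, 34 held 2 and 1 held 3. That island spanned chr7:75050000-75403999 in the male list, with a fold of 2.26, and chr7:75049600-75390799 in the female list, with a fold of 3.15. Its 3 H3K4me3 peaks held 27 to 42 male tags each, below the median of the set.

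The highest H3K27me3 fold averaged over both lists was at chr11:51981749-51982389, with 3.87 in the male list and 4.76 in the female list. Its H3K4me3 peak held 38 male and 37 female tags. Next came chr2:118721891-118722609 with folds of 2.99 and 4.18 and 30 and 33 tags. The third place was shared by chr13:22097527-22098929, with folds of 2.90 and 3.63 and 87 and 93 tags, and chr17:26339647-26340778, with folds of 2.86 and 3.67 and 82 and 50 tags. Female folds exceeded male folds at these sites, as did the median over all islands, and the scale of the fold differs between lists.

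The median distance from a region to the nearest other region was 841271 bp, and 58 of the 696 (8.33%) lay within 10 kb of another. This distance depends on the size of a class. In the 940 peaks with H3K27me3 and H3K27ac it was 402435 bp, with 10.1% within 10 kb, and in the 284 peaks with neither mark 603226 bp, with 18.0% within 10 kb. The nearest H3K4me3 peak outside the set was a median of 49432.5 bp away, and 112 regions had one within 10 kb. The nearest H3K27ac peak of either list was a median of 31391 bp away, with 30 regions having one within 1 kb, 85 within 5 kb and 455 within 50 kb. Chromosome 3 had the highest share of male H3K4me3 peaks in the set, 61 of 841 (7.25%), and chromosome 8 the lowest, 21 of 894 (2.35%).

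Values on either side of the H3K27ac limit lay close together. The regions nearest to H3K27ac were at the start of Fscn1, which encodes the actin-bundling protein fascin, 18 bp from an H3K27ac peak with 126 male H3K4me3 tags, and at the start of Nav2, a neuron navigator gene, 19 bp away with 50 tags. Just outside, the H3K4me3 peak at chr8:49927626-49929899 overlapped H3K27ac by 9 bp and held 194 tags, and that at chr7:142907050-142908315 overlapped it by 18 bp and held 97 tags.

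H3K4me1, which the rule did not use, was present at most of the regions, at a share near that of all male H3K4me3 peaks. This methylation is known for enhancers and for the flanks of active promoters. A peak of both lists was present at 638 of 696 regions (91.7%, exact 95% interval 89.4 to 93.6%, counting error only) and of neither list at 27. Over all 16018 male H3K4me3 peaks the share with both lists was 91.2% (90.7 to 91.6%). It was 96.0% (95.6 to 96.3%) in the active class, 87.3% (85.0 to 89.4%) where H3K27me3 and H3K27ac were both present, and 47.2% (41.3 to 53.2%) with neither mark.

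H3K4me1 also lay over the centre of most regions. H3K4me1 of both lists lay over the H3K4me3 summit at 624 regions (89.7%, 87.2 to 91.8%), against 66.1% (65.3 to 67%) of the active class and 79.6% (76.9 to 82.1%) of the class with H3K27me3 and H3K27ac. The intervals cover counting error over peaks only and are no test between classes. Among peaks with neither mark the share was 46.1% (40.2 to 52.1%), which followed from presence: of the peaks with H3K4me1 in both lists, 131 of 134 had it over the summit there, and 624 of 638 in the described set. H3K4me1 peaks covered a median of 100% of the H3K4me3 peak at the regions in either list, and 85.9% (male) and 91.7% (female) in the active class. The regions' H3K4me3 peaks were also narrower, and the part of width in these shares was not tested.

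The balance of H3K4me1 and H3K4me3 tags differed from that of the active class. H3K4me1 tags at the regions had medians of 142.5 (male list) and 198 (female list), lower than the 203 and 331 of the active class. Per region, H3K4me1 tags were a median of 2.07 times the H3K4me3 tags in the male list and 3.35 times in the female list. In the active class these ratios were 0.676 and 1.16, with H3K27me3 and H3K27ac 1.09 and 1.92, and with neither mark 1.71 and 2.29. These ratios cover only peaks that overlap an H3K4me1 peak of the list concerned. In the male list, the H3K4me1 peak had more tags than the H3K4me3 peak at 584 of 648 such regions (90.1%). The counts were 3890 of 11382 (34.2%) in the active class and 109 of 137 (79.6%) with neither mark, a class of 284 peaks. Among peaks with H3K4me1, the trait was thus shared with the other class of low H3K4me3 tags. The 2 antibodies and list depths are not on 1 scale, so the ratio has a meaning only between classes, and H3K4me3 had a part in choosing the regions.

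H3K36me3, the mark of transcribed gene bodies, was nearly absent. An island of either list overlapped 8 of the 696 regions (1.15%, 0.498 to 2.25%), against 40.7% (39.8 to 41.6%) of the active class and 37.0% (31.3 to 42.9%) of peaks with neither mark. Where H3K27me3 and H3K27ac were both present it was 3.83% (2.7 to 5.26%), also low. Within 5 kb of the peak, 58 regions had H3K36me3 (8.33%, 6.39 to 10.6%), against 75.5% (74.7 to 76.3%) of the active class and 21.4% (18.8 to 24.1%) where H3K27me3 and H3K27ac were both present. H3K36me3 in both lists was found at 1 region, chr2:44843217-44844890, with 172 male and 167 female H3K4me3 tags and H3K36me3 folds of 1.63 and 1.70.

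H3K9me3, the mark of heterochromatin and of repeats, overlapped more of the regions than of active peaks. An island of either list was present at 118 regions (17.0%, 14.2 to 20%), against 1.58% (1.37 to 1.83%) of the active class, 12.9% (10.8 to 15.2%) with H3K27me3 and H3K27ac, and 43% (37.1 to 48.9%) with neither mark. The male and female lists differed in which regions they marked: 86 had a male and 55 a female island, and 23 had both. The H3K9me3 lists held the fewest reads of all, 1526754 male and 2490730 female reads in islands. These counts do not give the depth of sequencing, and absence from a list is weak evidence.

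**Figure D2:**
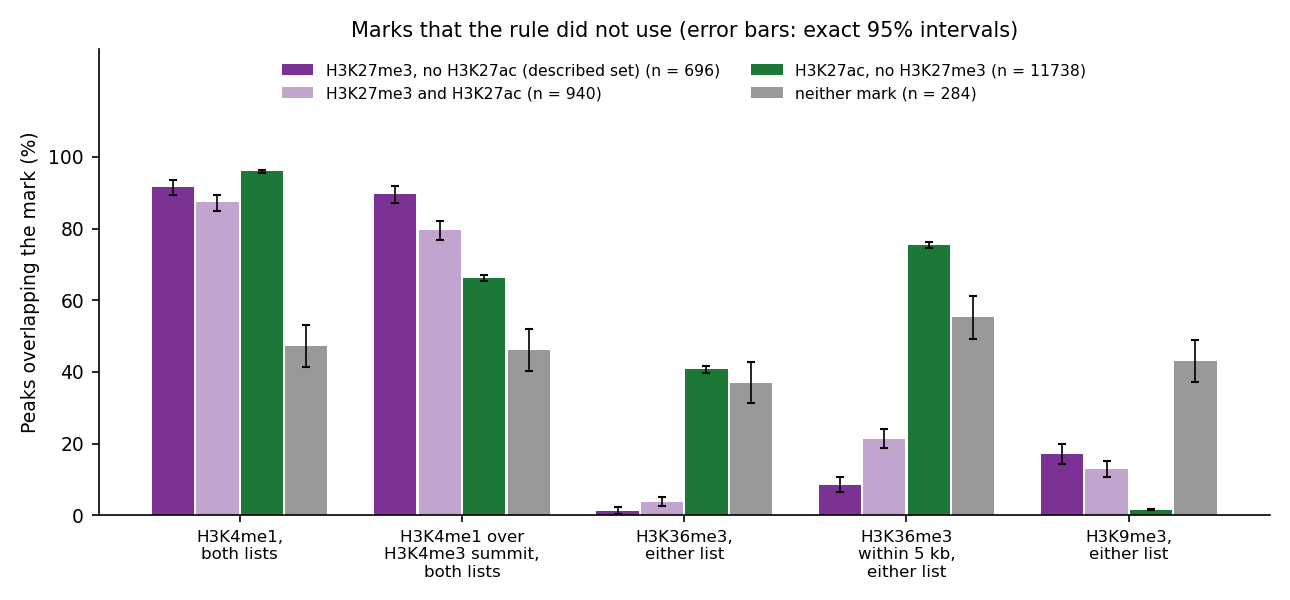
Percentage of H3K4me3 peaks, in 4 classes of peaks found in both H3K4me3 lists, that overlap marks the rule did not use; error bars are exact 95% intervals for counting error. The described set has H3K4me1 over the summit at 89.7% and H3K36me3 within 5 kb at 8.33%, against 66.1% and 75.5% in the active class.

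Among the placed genes, those of development were few by number. Starts of 125 of the 485 genes on 5 lists (Hox genes, other homeobox factors, other developmental transcription factors, signalling ligands and receptors, and neuronal genes) were placed, and 8 lay in the regions (6.4%). Over all placed protein-coding genes the count was 143 of 9476 (1.51%). Of the 8 placements, 7 rest on reads at 1 position, and the count fell to 1, Lhx2, when 2 positions were required. The Epha7 start rests on 14 matching bases of a read. The state most listed genes were in was another one: 85 of the 125 lay in H3K27me3 of both lists with no H3K4me3 peak of either list, and 28 lay in other H3K4me3 peaks. Over all placed protein-coding genes, 1305 of 9476 had H3K27me3 of both lists and no H3K4me3, and 5690 lay in other H3K4me3 peaks.

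The homeobox genes outside the Hox clusters gave 3 of 29. Msx1 held 124 male and 94 female tags, with H3K27me3 folds of 1.94 and 2.31. Msx3, a relative of Msx1 known from the dorsal neural tube, held 78 and 70 tags, with H3K27me3 folds of 1.76 and 3.0. Lhx2, a LIM homeobox factor that stellate cells are also known to express, held 30 and 20 tags, with folds of 1.95 and 2.54. The Msx genes were above the medians of the set in both lists and Lhx2 below them. The deposited false discovery rate was 1.81% at Msx1, 3.66% at Msx3 and 100% at Lhx2 in the male list.

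Other transcription factors of development gave 2 of 39. Sp5, a target and effector of Wnt signalling, held 103 male and 57 female tags. Esrrb, an orphan nuclear receptor of pluripotent cells, held 76 male and 99 female tags, so the 2 genes differed in which list was higher. Signalling genes gave 2 of 27: Epha7 held 160 male and 98 female tags and Bmp8a, a bone morphogenetic protein, 43 and 37. Neuronal genes gave 1 of 22, Elavl2, an RNA-binding protein of neurons, with 66 male and 40 female tags. The log2 ratio of male over female in the authors' deposited table was above 0 for 7 of these 8 genes, all but Esrrb, and for 513 of the 696 regions.

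Hox genes gave 0 of 8 placed, out of 39 listed, with 7 in H3K27me3 without H3K4me3. Tumour suppressors and cell cycle inhibitors gave 0 of 7, with 4 in other H3K4me3 peaks. The subunits of Polycomb complexes gave 0 of 12, and all 12 placed starts lay in other H3K4me3 peaks. The share over all placed protein-coding genes was 1.51%, so lists this short can hold 0 without differing from it.

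**Figure D3:**
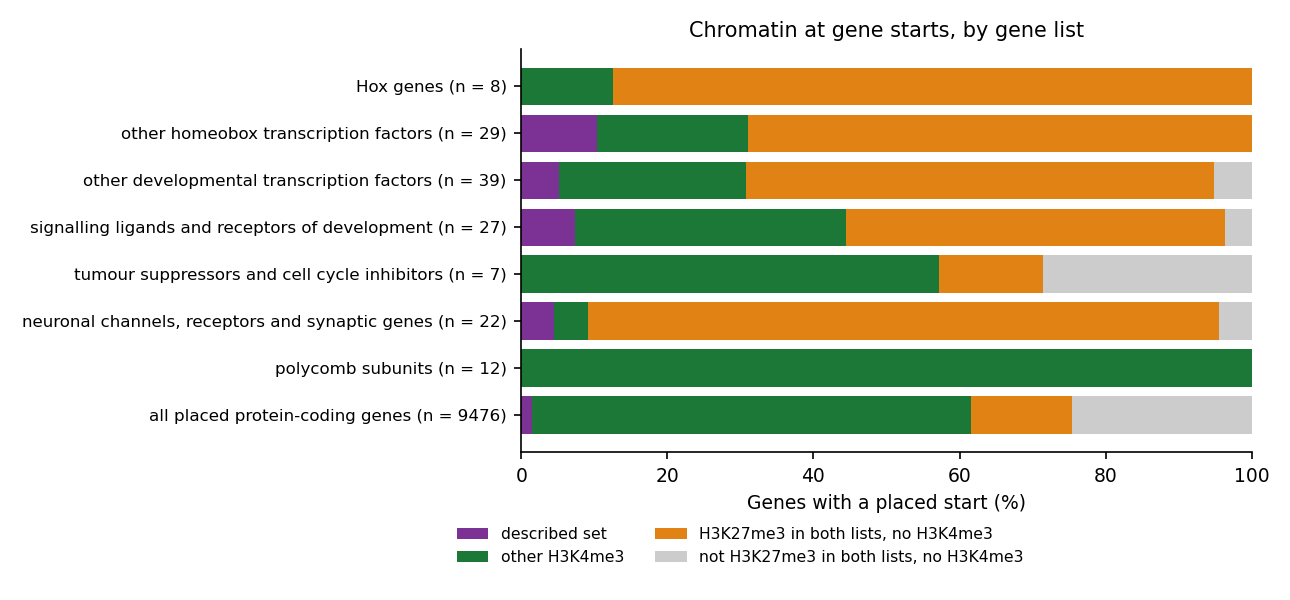
Percentage of genes with a placed start (numbers in parentheses) that lie in the described set, in another H3K4me3 peak, in H3K27me3 of both lists with no H3K4me3, or outside H3K4me3 and without H3K27me3 of both lists, by gene list. In the described set lie 3 of 29 homeobox genes outside the Hox clusters, 0 of 8 Hox genes and 143 of 9476 protein-coding genes.

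Marker genes of liver cell types were too few for a comparison. Starts of 13 of 36 were placed, and 2 lay in the regions, Epcam and Lrat. Epcam was 1 of 3 placed bile duct markers, and Lrat was the only 1 of 6 stellate and fibroblast markers placed. Each of the 2 starts rests on reads at 1 position. The deposited false discovery rate in the male list was 7.28% at Epcam and 29.99% at Lrat. Epcam held 60 male and 38 female H3K4me3 tags, with H3K27me3 folds of 1.85 and 1.70, and Lrat held 62 and 36 tags with folds of 1.39 and 1.58. The other 2 placed bile duct markers had no H3K4me3 peak: Cftr, a chloride channel, lay in H3K27me3 of both lists, and Spp1, which encodes osteopontin, did not. The 3 placed hepatocyte markers all lay in other H3K4me3 peaks. Of the other markers, the endothelial list gave 0 of 2, the Kupffer and myeloid list 0 of 3 and the lymphocyte list 0 of 1. Whether the H3K4me3 at Epcam and Lrat came from bile duct and stellate cells was not tested.

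Other named regions were picked after their values were seen, from among the placed genes with more tags. They are not the top of that ranking: Strip2 with 184 male tags, Golm2 with 163 and Sema6c with 159 are not described further. Cxcr4 held 173 male and 123 female tags in a peak of 2601 bp, with H3K27me3 folds of 1.73 and 1.99. Edn1, which encodes the vasoconstrictor endothelin-1, held 131 and 88 tags, and Frzb, a secreted Wnt antagonist, 135 and 93. Epor, the erythropoietin receptor, held 92 and 82 tags, and Sox4, a transcription factor of progenitor cells, 92 and 74. Ticrr, a regulator of origin firing, held 201 male and 209 female tags, and Clspn held 107 and 83. IgG coverage was 10.6 reads per kb at the Clspn peak, above the 3.56 pooled over the regions, and 2.71 at Ticrr. Outside chromosome 2, the most male tags in a region were the 558 at Gm40371, a predicted non-coding gene, which held 840 female tags.

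Promoter windows placed in the regions were rich in CpG. The 191 windows had a median GC content of 62.0% and a median ratio of observed to expected CG of 0.731 (quartiles 0.577 to 0.823). The 6421 windows of the active class had medians of 60.7% and 0.782. The 279 windows with H3K27me3 and H3K27ac had medians of 61.7% and 0.732. Windows with H3K27me3 of both lists but no H3K4me3 had medians of 49.7% and 0.282, and those without H3K4me3 and without H3K27me3 of both lists 45.3% and 0.184. A ratio of at least 0.6 with a GC content of at least 50% was reached by 67.5% of the regions' windows, 71.0% of active windows, 14% of those with H3K27me3 but no H3K4me3 and 34.1% of all 31396 autosomal windows of the table. Windows with H3K27me3 and H3K27ac reached it in 67.4% of cases, and the 29 windows with neither mark in 62.1%. In this measure the regions' promoters therefore lay near those of the other H3K4me3 classes given here. They lay far from those with H3K27me3 but no H3K4me3. Only placed windows enter, and placement needs an IgG read there.

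Short motifs were searched on both strands of the 300-base windows. GGGCGG, the core of the GC box, was in 67.5% of the regions' windows, 62.9% of active windows and 36% of the table. TATAAA was in 5.76%, 7.16% and 13.6%. CCAAT was in 35.6%, 38.7% and 37.3%. Windows with H3K27me3 and H3K27ac were close to the regions' windows, with GGGCGG in 67.4%, TATAAA in 5.73% and CCAAT in 35.5%. The Cxcr4 stretch printed above holds tataaa close to the start, in lower case.

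**Figure D4:**
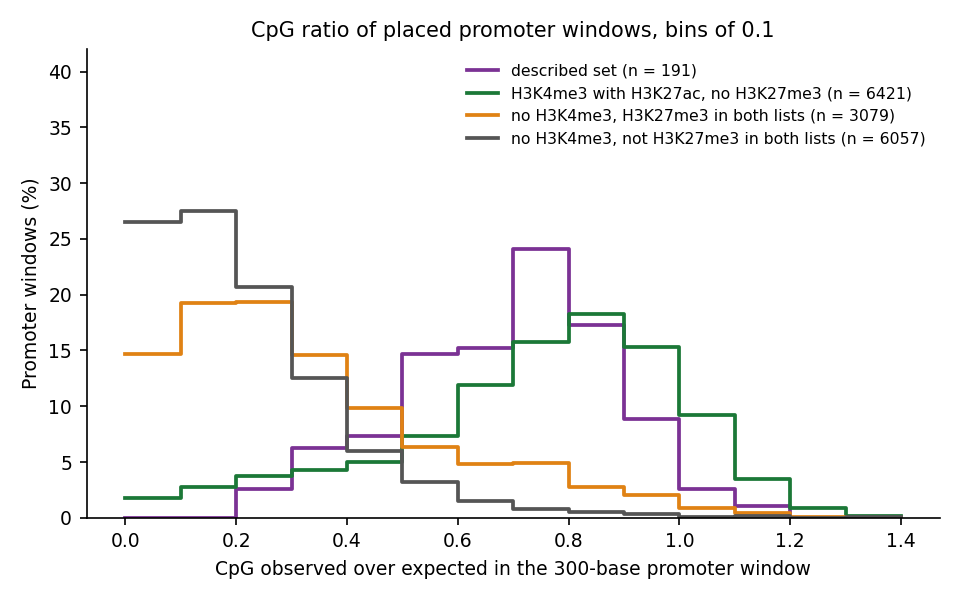
Distribution of the ratio of observed to expected CG over 300-base promoter windows placed on the lists, in bins of 0.1, as a percentage of each group's windows. The described set has a median of 0.731, near the 0.782 of active promoters, and promoters with H3K27me3 but no H3K4me3 have a median of 0.282.

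The comparison of the sexes asked where these marks differ between male and female liver. The rule required H3K4me3 and H3K27me3 in both lists, which limits the differences these marks can show, so the counts of their calls are a description. The calls come from the authors' deposited table, where an interval is male or female if its pooled libraries differ by a log2 ratio of 1 or more in size and by a p under 0.001. In the male H3K4me3 list, the calls of the authors' deposited table were male for 13 regions and female for 1 (2.01%), where 4.96% of all male peaks were called, 4.46% male and 0.499% female. In the female list the authors' deposited table had 8 male calls and 1 female call, where 2.59% of all female peaks were called, 1.34% male and 1.25% female. The active class, also present in both lists, had 1.99% called in the male list.

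The 1 region called female was at the start of Plppr1, with 45 male and 201 female H3K4me3 tags. The male peak, chr4:49072184-49073036, had a deposited false discovery rate of 25.8%. The female peak was longer, chr4:49071644-49073320, so the tags come from unlike intervals. The gene start rests on reads at 1 position. The H3K4me3 log2 ratio of male over female at Plppr1 was -1.71 in the male list of the authors' deposited table and -1.60 in the female list. H3K27me3 at Plppr1 went the other way: the authors' deposited table gave log2 ratios of 0.91 in the male list, the highest of the set, and 0.56 in the female list, neither of them a call. For H3K4me1, its tags were 147 and 287, and the authors' deposited table gave a ratio of -0.25.

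Of the 13 called male, 3 lay in a segment of chromosome 2 described next. Among the other 10, the shared start of Entpd1 and Tctn3, a gene of the ciliary transition zone, held 170 male and 73 female tags, and the authors' deposited table gave a log2 ratio of 1.23. IgG coverage there was 14.4 reads per kb, above the 3.56 pooled over the regions. The non-coding gene 1700022H16Rik held 156 and 64 tags, and the authors' deposited table gave it a ratio of 1.19. The region at chr16:10834485-10835801 held 77 male and 18 female tags, with a ratio of 1.33 in the authors' deposited table, the largest outside chromosome 2. These are single pooled values, and the spread between mice behind them is unknown.

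**Figure D5:**
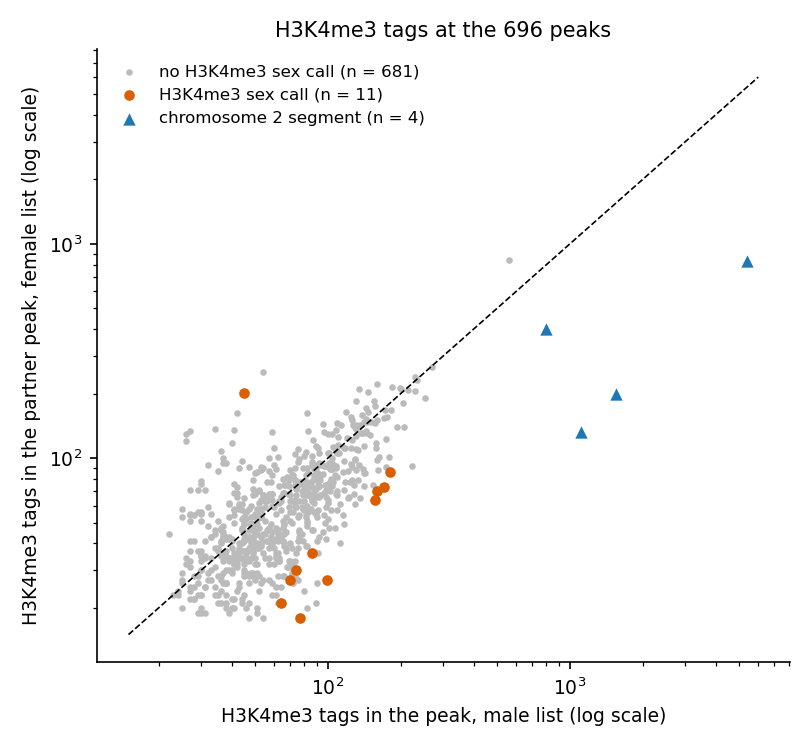
H3K4me3 tags of each of the 696 regions in the male list (x axis) and in its partner peak of the female list (y axis), both on log scales, with the dashed line at equal tags; orange points carry a sex call for H3K4me3 in the authors' deposited table and blue triangles are the 4 regions of the chromosome 2 segment, 3 of them called. The female-called Plppr1 lies at 45 and 201 tags, and the segment lies apart on the right with 793 to 5385 male tags.

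A segment of 68.3 kb at chr2:77797053-77865340 held 4 regions and stood apart from the rest. Its first region begins 12639 bp beyond the placed start of Cwc22, a splicing factor gene. The H3K4me3 tags of the 4, from the first to the last along the chromosome, were 793, 5385, 1554 and 1113 in the male list and 402, 834, 199 and 132 in the female list. The female partner peaks were single peaks, and for 3 of the 4 regions the tag numbers differ more than the H3K4me3 log2 ratios of the authors' deposited table, which were 0.93, 1.27, 1.78 and 1.4. The 4 regions held 14.9% of all male tags in the set. H3K27me3 went the other way, with folds of 1.4, 1.33, 1.33 and 1.28 in the male list and 2.85, 3.84, 4.67 and 2.13 in the female list. All 4 had H3K36me3 in the male list and none in the female list, and H3K9me3 in both. IgG coverage was 7.11 reads per kb over the segment's regions and 3.35 over the other 692, and the part of this difference in the values above was not tested.

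The segment held every call of H3K27me3, H3K4me1 and H3K36me3 in the set. For H3K27me3, the authors' deposited table had 2 female calls in each list. In the male list these were the only 2 female calls among all 20048 islands (0.00998%). In the female list they were among 8 female calls in 19506 islands (0.041%). For H3K4me1, the authors' deposited table had 3 male calls in the male list, where 8.21% were called male. It had 0 calls in the female list, where 5.13% were called. The share of H3K4me1 peaks called in either direction was low in the other H3K4me3 classes too. In the male list it was 0.463% at the regions, 0.363% with H3K27me3 and H3K27ac, 0.782% in the active class and 0.73% with neither mark. In the female list these other classes had 0.461%, 0.444% and 0.662%, in the same order. For H3K36me3, the authors' deposited table had 4 male calls among the 7 regions with a male-list island, where 0.556% were called male, and 0 among the 2 with a female-list island, where 0.457% were called. Their log2 ratios ran from 3.25 to 3.70 in the authors' deposited table. Without the segment, H3K4me3 calls numbered 11 and those of H3K27me3, H3K4me1 and H3K36me3 numbered 0.

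For H3K9me3, the authors' deposited table had 2 male calls in the male list, where 3.42% of islands were called male, and 2 female calls in the female list, where 2.24% were called female. The male calls were at chr11:77275354-77276327 and chr11:116514743-116515624, with log2 ratios of 1.02 and 1.06 in the authors' deposited table. The female calls included chr17:88144720-88146161, with a ratio of -1.46 in the authors' deposited table.

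Across all regions the ratios lay close to 0. For H3K4me3, the authors' deposited table gave a median log2 ratio of 0.21 in the male list (95% interval of the median over regions 0.17 to 0.25), against 0.08 over the whole list and 0.04 over its peaks with a female partner. In the female list the median of the regions was 0.16, against -0.02 over the whole list. Other classes of low tags had similar medians in the authors' deposited table, 0.15 with H3K27me3 and H3K27ac and 0.19 with neither mark, while the active class was at 0.01.

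For H3K27me3, the authors' deposited table gave a median of -0.05 in the male list, where the whole list was at 0.11, and -0.10 in the female list, where the whole list was at -0.04. For H3K4me1 the medians in the authors' deposited table were 0.17 and 0.11 in the male and female lists, against 0.16 and -0.09 over the whole lists. H3K9me3 changed sign with the list, at 0.43 over the 86 regions with a male island and -0.18 over the 55 with a female island in the authors' deposited table, as the whole lists did with 0.27 and -0.30.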

How the data were processed

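Livers of male and female mice were profiled for 6 histone marks in 34 libraries, with 4 IgG libraries, of which 1 male library from an earlier record was used. Bowtie, SICER 1.1 and mm9 are named in the submitters' processing notes. Per the labels, the SICER window was 400 bp and the gap 2400 bp for H3K27me3 and H3K9me3. Read and tag counts are raw counts deposited by the authors. Per the file headers, peaks carry a score (a multiple of the −log10 p-value), a fold enrichment and a false discovery rate in percent, and islands a p-value and a fold ratio over control. The log2 sex ratio, its p-value and its call are the authors' deposited values, made with a normalization for which the sources used here give no account. The 12 distinct lists were intersected at 1 bp with Python 3.11.15, pandas 2.3.3, numpy 2.4.6 and scipy 1.17.1. Shares have exact Clopper-Pearson 95% intervals for counting error only. Promoter windows were placed by exact matches of 35-base IgG reads, then, at the implied offset, by partial matches of at least 12 bases, or 20 with 1 mismatch. The intersection and placement code was tested on simulated data.

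Named regions were, up to fixed numbers, those with most tags in the set and per gene list, the highest H3K27me3 fold, the largest called sex ratios, most regions per island, H3K36me3 or H3K9me3 in both lists, and values nearest the rule's limits. Members and gene lists were chosen with earlier results of these data known. Alternatives covered overlap, score, fold, H3K27ac margin, starting list, ratio centring and gene matching. Sex chromosomes and the remaining IgG files were left out as not analysed here.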

Additional observations from a re-analysis of the deposited data

How the results depend on the processing

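No paired analysis was possible because each mark and sex has 1 pooled list. Of 95 alternative values, 35 moved beyond the interval of the reported value or, for counts, by over 1.5 times, and 60 did not. The cause was not tested. The better-scoring 50% of the male H3K4me3 list left 6 regions, of which 50% each had H3K4me1 in both lists, H3K36me3 and H3K9me3. Their called numbers were 2 for H3K4me3, 1 for H3K27me3 and 0 for H3K9me3, with median log2 ratios of 0.47, -0.36, 0.39 (H3K4me1) and 0.00399 (H3K9me3). No gene start was placed in them, so that alternative gave no CpG value. Limiting H3K27me3 to the better 50% of islands by fold left 494 regions, with 8 called for H3K4me3, 0 for H3K27me3, H3K4me1 and H3K36me3, and a median H3K27me3 ratio of -0.09. Requiring overlap of 50% of the peak left 657 regions, with 1 called for H3K27me3, 1 for H3K4me1 and 2 for H3K36me3. Starting from the female list gave 733 regions, with 8 called for H3K27me3, 11 for H3K4me1 and 10 for H3K36me3 and medians of -0.10, 0.12 and, for H3K9me3, -0.22, where the reported value was 0.43. Of the 696 reported regions, 690 overlapped these 733. Centring ratios on shared peaks gave medians of -0.11 for H3K27me3, 0.10 for H3K4me1 and 0.32 for H3K9me3, with 2 H3K9me3 calls. Leaving out the chromosome 2 segment, chosen after seeing the data, left 0 calls for H3K27me3, 0 for H3K4me1 and 0 for H3K36me3. Gene starts backed by at least 2 read positions were placed in 55 regions in place of 156 and for 1 listed gene in place of 8, and starts within 1 kb gave 13 listed genes. Under the settings other than the better-scoring 50%, the share with H3K4me1 ran from 91.5 to 92.2% and that with H3K9me3 from 16.5 to 18.2%. The share with H3K36me3, reported as 1.15%, was 0.58% without the segment, 0.61% with the better islands and 2.05% from the female list. The median H3K36me3 ratio of 3.25 rests on 7 regions with a wide interval (-0.15 to 3.7) and fell to 0.47 over 5 regions with 50% overlap, 0.47 over 2 with the better islands and 0.03 over 2 from the female list. Counts of regions depend on the authors' peak threshold, since 452 of 696 have a false discovery rate above 5%.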

Other observations

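Regions with H3K9me3 in both lists were 23, and 4 of them were those of the chromosome 2 segment. Among the rest, the region at chr3:34562144-34564317 held 150 male and 147 female H3K4me3 tags with H3K9me3 folds of 2.08 and 2.10. A pair at chr3:93618200-93619410 and chr3:93626948-93627985 shared 1 H3K9me3 island per list, of 41200 bp in the male and 71600 bp in the female list. The first of the pair held 59 male and 133 female H3K4me3 tags and the second 57 and 32, so neighbours in 1 island differed in which list was higher. A region holding the placed starts of Kcnab2, a potassium channel subunit, and Nphp4, a gene of the ciliary transition zone, lay in an H3K9me3 island of 88800 bp in the male and 63600 bp in the female list. Its H3K4me3 was among the lowest of the set, at 29 male and 28 female tags.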
